A study of Mus musculus with 12 samples.

Results

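The 32 genes described here serve protein folding in the endoplasmic reticulum (ER), its stress signalling and the removal of misfolded proteins. They were taken as the rows of the deposited count table whose symbol was on a list of 4 sensors and transcription factors, 12 chaperones and co-factors, 6 disulfide enzymes and 10 genes of ER-associated degradation (ERAD). All 32 were among the 24934 genes of the table, and 31 were among the 13249 genes with enough reads to be tested. RNA was sequenced from BV2 cells, an immortalised mouse microglial line grown in culture, which all groups shared. Acacetin cells (4 libraries) were given acacetin, a flavone made by plants, at 10 µM. Their treatment label names acacetin alone, but the design text of the series places the compound after oxygen and glucose deprivation with re-oxygenation, and the group was read in that way. OGD cells (4 libraries) went through deprivation and re-oxygenation, a culture model of ischaemia, without acacetin. Control cells (4 libraries) had neither. The lengths of deprivation and of re-oxygenation and the vehicle are not given in the sources used here. Nor do they say whether libraries of 1 group stem from separate cultures, so p-values measure only the spread between these libraries, which may be technical.

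Proteins that enter the secretory pathway fold in the ER with the help of chaperones such as BiP, the product of Hspa5, of lectin chaperones that hold glycoproteins, and of enzymes that form disulfide bonds. When unfolded proteins gather there, the membrane sensors IRE1, PERK and ATF6 start the unfolded protein response, in which ATF6 and the transcription factor XBP1 switch on chaperone and ERAD genes while PERK slows translation. ERAD recognises proteins that fail to fold, moves them back across the membrane and marks them with ubiquitin for the proteasome. Deprivation of glucose is a classical trigger of this response, because glycosylation needs sugar and folding needs energy, and microglia depend on the pathway for the secretion of cytokines.

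Library depth ran from 16427886 to 32693066 counted reads. Ribosomal 18S RNA took 13.1% of the reads of OGD 2 and 21.3% of those of OGD 3, against 0.137% to 1.86% in the other 10 libraries. Libraries also differed in how a gene's level moved with the GC share of its transcript. The slope of log2 level per 10 points of GC was 0.49 in Acacetin 1 and -0.77 in Acacetin 3, with the other 10 libraries between them. The slope of log2 level per doubling of gene length was -0.21 in Acacetin 1 and 0.29 in Acacetin 3, again with the other 10 between them. Of 12 microglial and myeloid markers 11 were tested, with a summed level of 2729 to 4245 CPM (counts scaled to a common library size) in Acacetin, 3244 to 4768 CPM in OGD and 3713 to 4475 CPM in Control. The marker P2ry12 was close to 0 in all groups. Summed markers of astrocytes, neurons, oligodendrocytes, endothelium and lymphocytes reached at most 2.40 CPM in any library. Scaling was by the TMM method, errors of a mean are the standard deviation (SD, n = 4 libraries) and errors of a log2 fold change are the standard error (SE). Adjusted p-values are from edgeR's quasi-likelihood test with Benjamini-Hochberg adjustment over all tested genes, and a gene was called where that p was under 0.05. Of the 11 tested microglial and myeloid markers, Csf1r was called higher in OGD than in Control (means of 144 and 66.3 CPM). Cx3cr1 was called lower (2.10 and 4.39 CPM), and the rest were not called.

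In the deposited FPKM values, which divide by gene length and so allow genes to be set side by side, the members spanned a wide range in unstressed cells. The lectin chaperone gene Calr stood at 201 ± 29.0 FPKM in Control (SD, n = 4) and P4hb, which encodes protein disulfide isomerase, at 192 ± 16.6 FPKM, and these neighbours in the order did not differ beyond their spread. Sdf2l1, whose product helps BiP work with its co-chaperones, followed at 140.3 ± 9.002 FPKM, and Pdia6 at 64.7 ± 8.42 FPKM. Hspa5 stood at 29.6 ± 11.9 FPKM. The sensors were near the bottom of the order, with 1.99 ± 0.545 FPKM for Atf6, 0.790 ± 0.301 FPKM for Ern1 and 0.540 ± 0.119 FPKM for Eif2ak3, whereas their target Xbp1 stood at 37.4 ± 2.24 FPKM. Derl3, a member of the derlin family of ERAD channels, had 3 reads in all, 1 in OGD 2 and 2 in OGD 4, and was not tested. A count of 3 reads equalled 0.0824 to 0.234 CPM, depending on the library.

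OGD against Control asks how the pathway's transcripts differed after deprivation and re-oxygenation. Of the 31 tested members, 11 were higher in OGD, 2 were lower and 18 were not called. Over all tested genes 28.8% were called, 16.2% higher and 12.6% lower. The 11 that rose were 5 chaperone genes (Dnajb11, Calr, Creld2, Hyou1 and Manf), the disulfide enzyme gene Pdia4, and 5 ERAD genes (Selenos, Syvn1, Derl2, Derl1 and Herpud1). The 2 that fell were the oxidase gene Ero1a and the ERAD gene Edem2, and of the 4 sensors and transcription factors 0 were called. The median log2 fold change was 0.31 over the members and 0.03 over all tested genes, and 23 of 31 members had a positive estimate. The OGD libraries lay wholly above the Control libraries for 15 members and wholly below them for 2, against 19.0% of all tested genes above, 17.0% below and 36.0% in either direction. In bulk RNA a change in the level per cell and a change in the mix of cells cannot be told apart. Without OGD 2 and OGD 3, which were rich in 18S RNA, 8 members were called higher and 1 lower, and the share of all genes called was 14.5%.

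**Figure D1:**
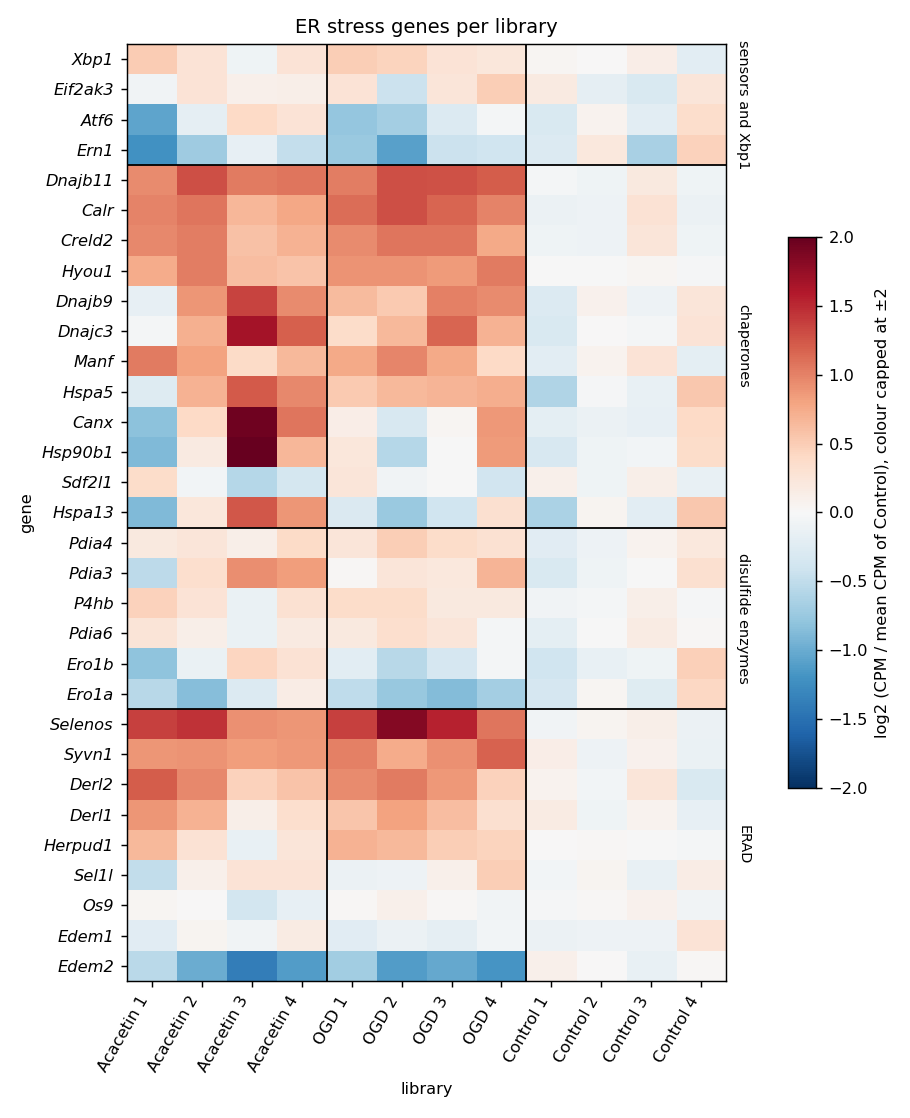
Level of each tested member in each library as log2 of its CPM over the mean CPM of the 4 Control libraries (colour, capped at 2 on either side), with members in rows by role and libraries in columns. Dnajb11, Calr, Creld2, Hyou1, Selenos and Syvn1 are red in all 8 Acacetin and OGD libraries, Edem2 is blue in the same 8, and Hsp90b1 and Canx differ most between Acacetin 1 and Acacetin 3.

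Promoters of the members were examined for the elements through which the unfolded protein response is known to act, to see which members carry a match to a site of ATF6 or XBP1 near the start. RefSeq gave a window from 250 bases before to 50 bases after the start (build GRCm38.p6, while the study used GRCm39) for 27 of the 32 members. Atf6, Hspa13, Hyou1, Manf and Derl1 had no entry. The ER stress response element (ERSE: CCAAT, any 9 bases, CCACG), searched on both strands, was found in 10 of 27 members (37.0%), namely Hspa5, Hsp90b1, Dnajc3, Calr, Canx, Creld2, Pdia6, Ero1b, Syvn1 and Derl3. It was found in 0.119% of all 32851 promoters of the same length, or 0.137% when counted per gene symbol, as the members were. Of 64 pathway partners described further on, 0 held it. The members were listed as genes of ER folding and the unfolded protein response, and the element is known from that response. The higher share among members is therefore no test. The shorter ERSE-II (ATTGG, any base, CCACG) was found in Dnajb11 and Herpud1 and in 0.0365% of all promoters. Windows around these elements are shown for the members called higher and, for comparison, for Hspa5, Dnajc3 and Hsp90b1, which were not called. Each window holds 10 bases on either side of the element, is read along the element's own strand, and has the fixed bases in capitals.
Calr ERSE, chr8:84847065-84847103, plus strand: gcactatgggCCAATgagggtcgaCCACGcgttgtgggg
Creld2 ERSE, chr15:88819510-88819548, minus strand: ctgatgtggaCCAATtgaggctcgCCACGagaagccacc
Syvn1 ERSE, chr19:6046522-6046560, plus strand: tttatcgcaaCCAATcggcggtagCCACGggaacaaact
Dnajb11 ERSE-II, chr16:22857842-22857872, plus strand: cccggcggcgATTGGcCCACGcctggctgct
Herpud1 ERSE-II, chr8:94386367-94386397, plus strand: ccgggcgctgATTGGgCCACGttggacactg
Hspa5 ERSE, chr2:34772015-34772053, plus strand: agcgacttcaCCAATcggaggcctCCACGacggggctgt
Dnajc3 ERSE, chr14:118937817-118937855, plus strand: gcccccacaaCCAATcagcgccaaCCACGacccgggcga
Hsp90b1 ERSE, chr10:86705628-86705666, minus strand: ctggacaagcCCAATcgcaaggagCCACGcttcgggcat
Hsp90b1 ERSE, chr10:86705523-86705561, plus strand: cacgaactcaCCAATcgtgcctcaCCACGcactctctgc
The element of Syvn1 began 44 bases before the start and that of Hspa5 65 bases before it, whereas that of Calr lay 162 bases before it on the opposite strand. In Dnajb11 the ERSE-II lay after the start, at bases 8 to 18. Hsp90b1 carried 2 elements, 1 on each strand.

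Another 3 motifs were searched in the same windows. The UPRE (TGACGTGG) was found in 0 of 27 members, in 4 of 64 partners (6.25%: Txndc5, Txndc11, Ube2j1 and Vcp) and in 0.676% of all promoters. The amino acid response element (AARE, TGATGNAA), a site of ATF4, was found in Herpud1 alone of the members, in 4 of 64 partners and in 3.97% of all promoters. A CCAAT box, which ERSE contains, was found in 23 of 27 members (85.2%), in 32 of 64 partners and in 37.4% of all promoters. Among tested members with an ERSE or ERSE-II, 5 of 11 were called higher in OGD and 0 lower, with a median log2 fold change of 0.65 (range -0.27 to 1.20). Among the 15 tested members with a promoter entry and neither element, 3 were called higher and 2 lower, with a median of 0.18 (range -0.99 to 1.48). Hyou1, Manf and Derl1, which were called higher, had no promoter entry and are in neither count. Over all tested genes 16.2% were called higher and 12.6% lower. These counts are descriptions, a match is not a bound site, and the lists were not tested against each other. Selenos, the member with the largest rise, had neither element in its window. Whole promoters are shown for Hspa5 and Dnajb11, which were among the richest in CCAAT boxes, and for Edem2, the member with the largest fall, which had no match to any of the 5 motifs (capitals mark ERSE, ERSE-II and CCAAT boxes on either strand).
Hspa5 promoter, chr2:34771840-34772139, plus strand: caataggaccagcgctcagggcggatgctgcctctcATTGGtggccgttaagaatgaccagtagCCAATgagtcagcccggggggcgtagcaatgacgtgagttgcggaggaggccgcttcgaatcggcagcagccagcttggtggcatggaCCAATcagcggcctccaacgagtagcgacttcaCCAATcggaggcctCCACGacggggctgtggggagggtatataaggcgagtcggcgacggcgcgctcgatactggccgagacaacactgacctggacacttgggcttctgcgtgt
Dnajb11 promoter, chr16:22857595-22857894, plus strand: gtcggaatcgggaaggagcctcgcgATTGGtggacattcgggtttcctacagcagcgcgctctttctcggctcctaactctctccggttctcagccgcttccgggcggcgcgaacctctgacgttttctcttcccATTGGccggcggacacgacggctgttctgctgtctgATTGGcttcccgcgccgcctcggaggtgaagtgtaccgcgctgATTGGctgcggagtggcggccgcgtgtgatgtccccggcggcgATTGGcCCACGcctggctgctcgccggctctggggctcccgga
Edem2 promoter, chr2:155729426-155729725, minus strand: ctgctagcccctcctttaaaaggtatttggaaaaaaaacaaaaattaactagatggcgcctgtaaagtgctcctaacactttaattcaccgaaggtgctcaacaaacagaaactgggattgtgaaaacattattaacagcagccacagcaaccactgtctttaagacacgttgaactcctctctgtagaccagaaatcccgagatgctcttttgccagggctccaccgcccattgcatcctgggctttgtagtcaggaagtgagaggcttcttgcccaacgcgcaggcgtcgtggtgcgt
Hspa5 held 4 CCAAT boxes in these 300 bases, Dnajb11 held 5 and Edem2 held 0.

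Of the sensors and transcription factors, Xbp1 came closest to a call. Xbp1 (ENSMUSG00000020484.20, chromosome 11), whose messenger RNA is spliced by IRE1 into the form that encodes an active factor, had 204, 173, 135 and 174 CPM in Acacetin 1 to 4, 200.5, 194, 173 and 167 CPM in OGD 1 to 4, and 148, 145, 157 and 123 CPM in Control 1 to 4. All 4 OGD libraries were above all 4 Control libraries, while Acacetin 3 lay inside the Control range. The log2 fold change of OGD against Control was 0.36 ± 0.14 (adjusted p = 0.0704). Xbp1 passed the threshold in only 6 of 21 alternative fits, and its lowest estimate over the 21 was 0.20. Among the 6 were fits without Acacetin 1 and 3 (0.36, adjusted p = 0.0229), without Acacetin 3 and 4 (0.36, adjusted p = 0.0298) and with the GC trend of each library removed (0.36, adjusted p = 0.00836). The fits without Acacetin 3 and 4 and with the GC trend removed had not been planned. Counts per gene do not separate the spliced from the unspliced form of Xbp1.

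The 3 membrane sensors were not called. Ern1 (ENSMUSG00000020715.10, chromosome 11), which encodes IRE1, had 3.23, 4.57, 6.67 and 5.36 CPM in Acacetin 1 to 4, 4.48, 3.54, 5.54 and 5.68 CPM in OGD 1 to 4, and 6.22, 8.66, 4.80 and 10.3 CPM in Control 1 to 4. OGD 1 and 2 and Acacetin 1 and 2 were below every Control library and the rest overlapped them (OGD against Control log2 fold change -0.64 ± 0.28, adjusted p = 0.109). Ern1 passed the threshold in 2 of 21 alternative fits, among them that without Acacetin 1 and 3 (-0.64, adjusted p = 0.0473). Eif2ak3 (ENSMUSG00000031668.15, chromosome 6), which encodes PERK, had 3.65, 4.63, 4.12 and 4.13 CPM in Acacetin 1 to 4, 4.64, 2.85, 4.53 and 5.36 CPM in OGD 1 to 4, and 4.34, 3.36, 3.09 and 4.51 CPM in Control 1 to 4, with the groups mixed (log2 fold change 0.18 ± 0.24, adjusted p = 0.607). Atf6 (ENSMUSG00000026663.7, chromosome 1) had 10.3, 18.9, 28.1 and 25.7 CPM in Acacetin 1 to 4, 12.5, 13.3, 17.7 and 20.9 CPM in OGD 1 to 4, and 17.2, 22.4, 18.5 and 27.3 CPM in Control 1 to 4. OGD 1 and 2 and Acacetin 1 were below every Control library, Acacetin 3 was above every Control library, and the rest lay within the Control range (OGD against Control -0.41 ± 0.27, adjusted p = 0.292).

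Genes downstream of PERK did not move together. Ddit3, which encodes the pro-apoptotic factor CHOP, had 12.3, 11.1, 7.72 and 8.30 CPM in Acacetin 1 to 4, 13.9, 21.4, 17.6 and 11.9 CPM in OGD 1 to 4, and 40.6, 67.1, 41.4 and 91.8 CPM in Control 1 to 4. The OGD and Acacetin libraries were all below the lowest Control library, and Ddit3 fell in OGD with a log2 fold change of -1.90 ± 0.28 (adjusted p = 0.000319). Ppp1r15a, which encodes GADD34, the phosphatase subunit that restores translation, rose to 37.7 ± 2.97 CPM in OGD, against 24.8 ± 1.17 CPM in Control (log2 fold change 0.60 ± 0.12, adjusted p = 0.00250). Atf4, the transcription factor whose translation PERK favours, averaged 418 ± 64.4 CPM in OGD and 456 ± 21.9 CPM in Control (adjusted p = 0.615). Trib3, a pseudokinase induced by ATF4 and CHOP, averaged 53.8 ± 7.02 CPM in OGD and 54.3 ± 7.99 CPM in Control (adjusted p = 0.971).

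Among the 12 chaperone genes 5 rose in OGD, 0 fell and 7 were not called, beside 16.2% higher and 12.6% lower over all tested genes. Their median log2 fold change was 0.74. Dnajb11 (ENSMUSG00000004460.18, chromosome 16), which encodes the BiP co-chaperone ERdj3, had 85.8, 109, 92.0 and 93.9 CPM in Acacetin 1 to 4, 90.5, 109, 108 and 103 CPM in OGD 1 to 4, and 43.3, 42.0, 50.9 and 42.1 CPM in Control 1 to 4. Its lowest OGD library was well above its highest Control library, and it rose 2.30-fold in OGD (log2 fold change 1.20 ± 0.12, adjusted p = 4.80e-05). Calr (ENSMUSG00000003814.9, chromosome 8), which encodes the lectin chaperone calreticulin, had 1355, 1428, 1081 and 1161 CPM in Acacetin 1 to 4, 1478, 1658, 1519 and 1348 CPM in OGD 1 to 4, and 627, 636, 829 and 625 CPM in Control 1 to 4. Control 3 was the highest Control library and still lay far below every OGD and Acacetin library, and Calr rose 2.21-fold in OGD (1.14 ± 0.16, adjusted p = 0.000254).

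Hyou1 (ENSMUSG00000032115.15, chromosome 9), which encodes GRP170, a chaperone and nucleotide exchange factor of BiP named for its induction by low oxygen, had 175, 214, 160.4 and 156 CPM in Acacetin 1 to 4, 195, 196, 189 and 216 CPM in OGD 1 to 4, and 104, 104, 108 and 104 CPM in Control 1 to 4. Its 4 Control libraries were nearly alike, and the OGD libraries were all above them (log2 fold change 0.92 ± 0.12, adjusted p = 0.000211). Creld2 (ENSMUSG00000023272.5, chromosome 15), a secreted ER stress protein with disulfide isomerase activity, had 92.5, 96.5, 71.5 and 77.0 CPM in Acacetin 1 to 4, 91.7, 99.999, 99.8 and 81.0 CPM in OGD 1 to 4, and 44.9, 44.5, 56.2 and 45.1 CPM in Control 1 to 4. The OGD and Acacetin libraries did not overlap the Control libraries (OGD against Control 0.97 ± 0.14, adjusted p = 0.000279). Manf, a secreted protein that protects cells under ER stress, averaged 377 ± 60.3 CPM in OGD and 226 ± 37.5 CPM in Control (0.74 ± 0.18, adjusted p = 0.00668). Without OGD 2 and 3 its adjusted p was 0.0553. The calls of Dnajb11, Calr, Hyou1 and Creld2 held in all 21 alternative fits.

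**Figure D2:**
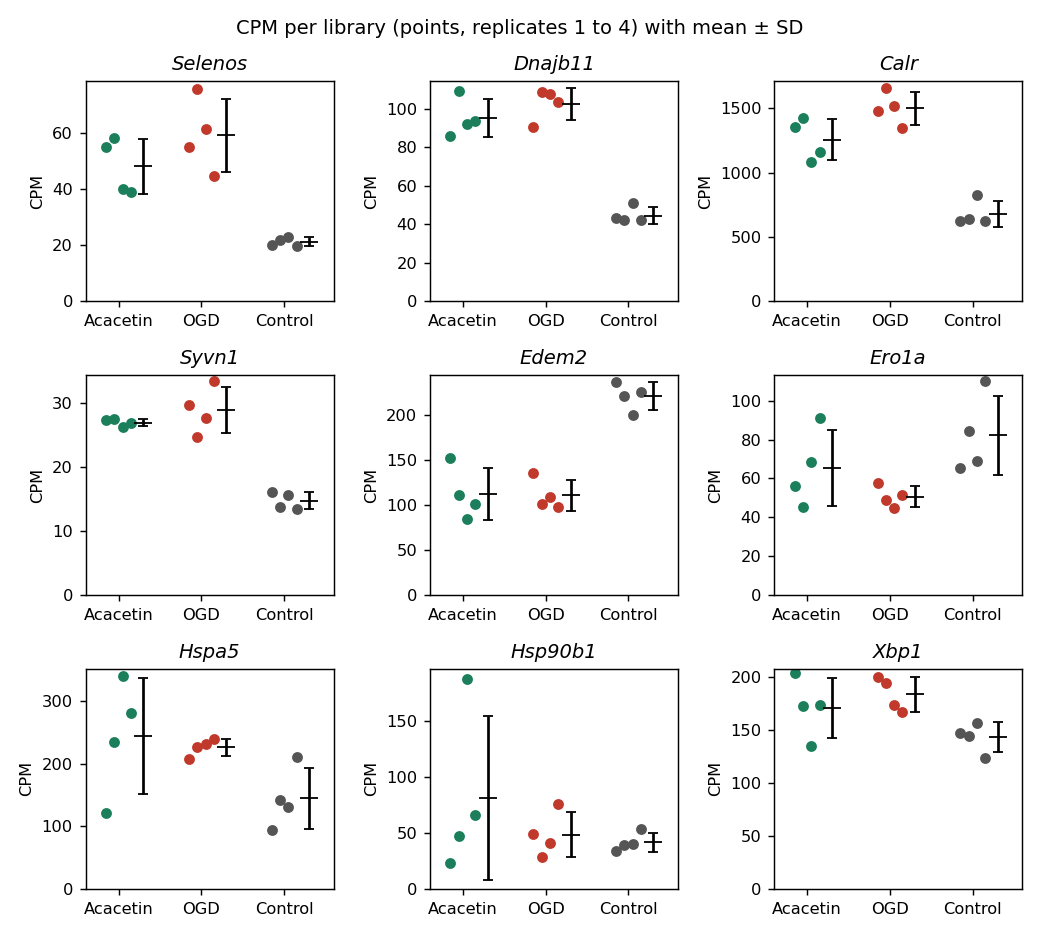
CPM of 9 members in each library (points, in the order of replicates 1 to 4) with the mean and SD of each group, Acacetin, OGD and Control from left to right, each panel with its own axis from 0. Selenos, Dnajb11, Calr and Syvn1 lie higher and Edem2 lower in all 8 Acacetin and OGD libraries than in any Control library, and Hsp90b1 spans 22.7 to 187 CPM within Acacetin.

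The BiP gene Hspa5 (ENSMUSG00000026864.14, chromosome 2), the central chaperone of the pathway, had 121, 234, 339.5 and 281 CPM in Acacetin 1 to 4, 208, 226, 231 and 240.1 CPM in OGD 1 to 4, and 94.8, 142, 130.4 and 211 CPM in Control 1 to 4. The 4 OGD libraries were closely grouped, but Control 4 lay inside their range and Acacetin 1 inside the Control range. The log2 fold change of OGD against Control was 0.65 ± 0.27 (adjusted p = 0.0938). Its co-chaperone genes Dnajb9, which encodes ERdj4, and Dnajc3, which encodes p58IPK, had estimates of 0.78 ± 0.29 (adjusted p = 0.0583) and 0.74 ± 0.31 (adjusted p = 0.0942), and in both the OGD libraries lay above all Control libraries. Without Acacetin 1 and 3, the libraries at the ends of the range of GC slopes, the adjusted p was 0.0115 for Hspa5, 0.00969 for Dnajb9 and 0.0153 for Dnajc3, with estimates of 0.65, 0.78 and 0.73. Of 21 alternative fits, only 5 called Hspa5, 6 called Dnajb9 and 5 called Dnajc3. Over the 21 their lowest estimates were 0.49, 0.32 and 0.25.

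Hsp90b1 and Sdf2l1 were the chaperone genes with the largest p in OGD against Control. Hsp90b1 (ENSMUSG00000020048.14, chromosome 10), which encodes GRP94, the chaperone of Toll-like receptors and integrins, had 22.7, 47.1, 187 and 66.0 CPM in Acacetin 1 to 4, 48.6, 28.2, 41.3 and 75.3 CPM in OGD 1 to 4, and 33.4, 39.3, 40.1 and 53.8 CPM in Control 1 to 4. Acacetin 3 stood far above all other libraries and Acacetin 1 below them, and OGD against Control was 0.22 ± 0.48 (adjusted p = 0.781). Sdf2l1 (ENSMUSG00000022769.10, chromosome 16) had 236, 175, 124 and 144 CPM in Acacetin 1 to 4, 215, 175, 182 and 141 CPM in OGD 1 to 4, and 196, 172, 199 and 164 CPM in Control 1 to 4, with all groups overlapping (OGD against Control -0.04 ± 0.19, adjusted p = 0.912). Canx, the membrane-bound partner of calreticulin, averaged 41.1 ± 15.3 CPM in OGD and 34.6 ± 7.30 CPM in Control, and Hspa13, an ER protein of the HSP70 family, 3.44 ± 1.13 CPM in OGD and 4.01 ± 1.38 CPM in Control, both with overlapping groups.

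Of the 6 disulfide enzyme genes 1 rose (16.7%) and 1 fell in OGD, near the shares of all tested genes (16.2% higher and 12.6% lower). Ero1a (ENSMUSG00000021831.10, chromosome 14), which encodes the oxidase that recharges protein disulfide isomerase and is a known target of hypoxia signalling, had 56.0, 45.5, 68.4 and 90.9 CPM in Acacetin 1 to 4, 57.8, 48.8, 44.9 and 51.4 CPM in OGD 1 to 4, and 65.3, 84.4, 69.2 and 110.0 CPM in Control 1 to 4. Every OGD library was below every Control library, with Control 4 the highest, and Ero1a fell with a log2 fold change of -0.70 ± 0.21 (adjusted p = 0.0225). This call rested on single libraries, since the adjusted p was 0.0535 without Control 2, 0.0926 without Control 4, 0.0586 without OGD 2 and 0.0781 without OGD 3. Its paralog Ero1b (ENSMUSG00000057069.8, chromosome 13) had 6.26, 9.98, 14.6 and 13.3 CPM in Acacetin 1 to 4, 9.40, 7.44, 8.66 and 10.6 CPM in OGD 1 to 4, and 8.26, 9.87, 10.3 and 15.1 CPM in Control 1 to 4, with overlapping groups (OGD against Control -0.27 ± 0.26, adjusted p = 0.480).

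The protein disulfide isomerase genes differed less between groups. Pdia4 (ENSMUSG00000025823.10, chromosome 6), which encodes ERp72, had 92.5, 94.95, 87.0 and 105 CPM in Acacetin 1 to 4, 95.4, 113, 104 and 99.8 CPM in OGD 1 to 4, and 68.6, 75.4, 84.9 and 93.2 CPM in Control 1 to 4. The OGD libraries were above the Control libraries by a small margin (0.35 ± 0.12, adjusted p = 0.0446), and the call was lost in 13 of 21 alternative fits, among them all those without 1 Control or OGD library other than Control 4 (adjusted p = 0.0540 to 0.135). P4hb (ENSMUSG00000025130.12, chromosome 11) had 888, 783, 587 and 797 CPM in Acacetin 1 to 4, 829, 828, 742 and 742 CPM in OGD 1 to 4, and 613, 628, 702 and 638 CPM in Control 1 to 4. Its OGD libraries were also above all Control libraries, but the estimate was not called (0.28 ± 0.15, adjusted p = 0.166). Pdia6 (ENSMUSG00000020571.14, chromosome 12) had 338, 309, 259 and 323 CPM in Acacetin 1 to 4, 324, 357, 335 and 277 CPM in OGD 1 to 4, and 248, 282, 319 and 288 CPM in Control 1 to 4, and the OGD and Control libraries overlapped (0.19 ± 0.14, adjusted p = 0.339). Pdia3 (ENSMUSG00000027248.14, chromosome 2), which encodes ERp57, the isomerase that works with calreticulin and calnexin, had 74.3, 134, 204 and 190.3 CPM in Acacetin 1 to 4, 108, 126, 124 and 170.2 CPM in OGD 1 to 4, and 86.3, 101, 106 and 134 CPM in Control 1 to 4. Acacetin 1 was the lowest and Acacetin 3 the highest of the 12 libraries, and OGD overlapped Control (0.31 ± 0.26, adjusted p = 0.417).

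ERAD held the member with the largest rise and the member with the largest fall. Of its 9 tested genes 5 rose in OGD, 1 fell and 3 were not called, beside 16.2% higher and 12.6% lower over all tested genes. Selenos (ENSMUSG00000075701.11, chromosome 7), which encodes a selenoprotein that links derlins to the VCP ATPase and is known from inflammation, had 55.1, 58.2, 40.1 and 39.2 CPM in Acacetin 1 to 4, 55.0, 75.8, 61.5 and 44.5 CPM in OGD 1 to 4, and 20.2, 22.1, 23.1 and 19.6 CPM in Control 1 to 4. Every OGD and Acacetin library was above every Control library, with OGD 2 the highest, and Selenos rose 2.79-fold in OGD (1.48 ± 0.18, adjusted p = 0.000136). Syvn1 (ENSMUSG00000024807.19, chromosome 19), which encodes the ubiquitin ligase HRD1, had 27.3, 27.6, 26.3 and 26.9 CPM in Acacetin 1 to 4, 29.8, 24.8, 27.8 and 33.5 CPM in OGD 1 to 4, and 16.2, 13.8, 15.7 and 13.5 CPM in Control 1 to 4. Every OGD and Acacetin library was above every Control library, and Syvn1 rose 1.96-fold in OGD (0.97 ± 0.13, adjusted p = 0.000206).

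Derl2 (ENSMUSG00000018442.14, chromosome 11), a derlin of the HRD1 complex, had 119, 99.987, 70.5 and 76.4 CPM in Acacetin 1 to 4, 99.1, 105, 93.9 and 70.4 CPM in OGD 1 to 4, and 53.7, 49.5, 60.4 and 41.5 CPM in Control 1 to 4. The OGD libraries were above the Control libraries, with OGD 4 nearest to them, and Derl2 rose with a log2 fold change of 0.84 ± 0.18 (adjusted p = 0.00388), a call lost with the GC trend removed (adjusted p = 0.0949). Derl1 averaged 256 ± 34.5 CPM in OGD and 171 ± 17.4 CPM in Control (0.58 ± 0.17, adjusted p = 0.0195), and its adjusted p was 0.0612 without Control 2 and 0.0644 without OGD 2. Herpud1, an adaptor of the HRD1 complex and a classical stress target, averaged 80.2 ± 6.63 CPM in OGD and 53.9 ± 0.982 CPM in Control (0.57 ± 0.15, adjusted p = 0.0102), a call lost with limma on log2 FPKM (adjusted p = 0.0996 with 1 added and 0.101 with 0.1 added). Exons of Syvn1 and Derl2 overlap, on the opposite strand, those of Mrpl49 and Mis12 in the GENCODE M21 annotation, and in all 9 of the 32 members shared exon bases with another gene. On the same strand 3 members did so, Manf with Rbm15b, Hsp90b1 with Gm15344 and Gm25745, and Pdia4 with Mir704. Counting by strand would not separate reads from bases shared on 1 strand. The kit was stranded according to the labels, but the strand setting of the counting is not given in the sources used here.

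Edem2 (ENSMUSG00000038312.11, chromosome 2), which encodes a lectin-like protein that starts the trimming of mannose on misfolded glycoproteins, had 152, 111, 84.6 and 102 CPM in Acacetin 1 to 4, 136, 101, 108 and 97.3 CPM in OGD 1 to 4, and 237, 220.4, 199.5 and 225 CPM in Control 1 to 4. Every OGD and Acacetin library was below every Control library, and Edem2 fell with a log2 fold change of -0.99 ± 0.17 (adjusted p = 0.000943), a call that held in all 21 alternative fits. Its paralog Edem1 averaged 129 ± 6.31 CPM in OGD and 142 ± 20.2 CPM in Control (-0.14 ± 0.13, adjusted p = 0.457). Sel1l (ENSMUSG00000020964.15, chromosome 12), the scaffold that stabilises HRD1, had 18.9, 28.5, 32.02 and 32.1 CPM in Acacetin 1 to 4, 24.4, 24.7, 28.6 and 37.4 CPM in OGD 1 to 4, and 25.4, 27.4, 23.9 and 29.2 CPM in Control 1 to 4, with overlapping groups (0.12 ± 0.18, adjusted p = 0.680). Os9 (ENSMUSG00000040462.14, chromosome 10), a lectin that hands glycoproteins to the HRD1 complex, had 51.2, 50.5, 38.8 and 44.6 CPM in Acacetin 1 to 4, 50.6, 53.6, 50.9 and 47.6 CPM in OGD 1 to 4, and 49.2, 50.7, 52.8 and 47.4 CPM in Control 1 to 4. Its OGD and Control libraries covered almost the same narrow range (0.02 ± 0.11, adjusted p = 0.929).

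**Figure D3:**
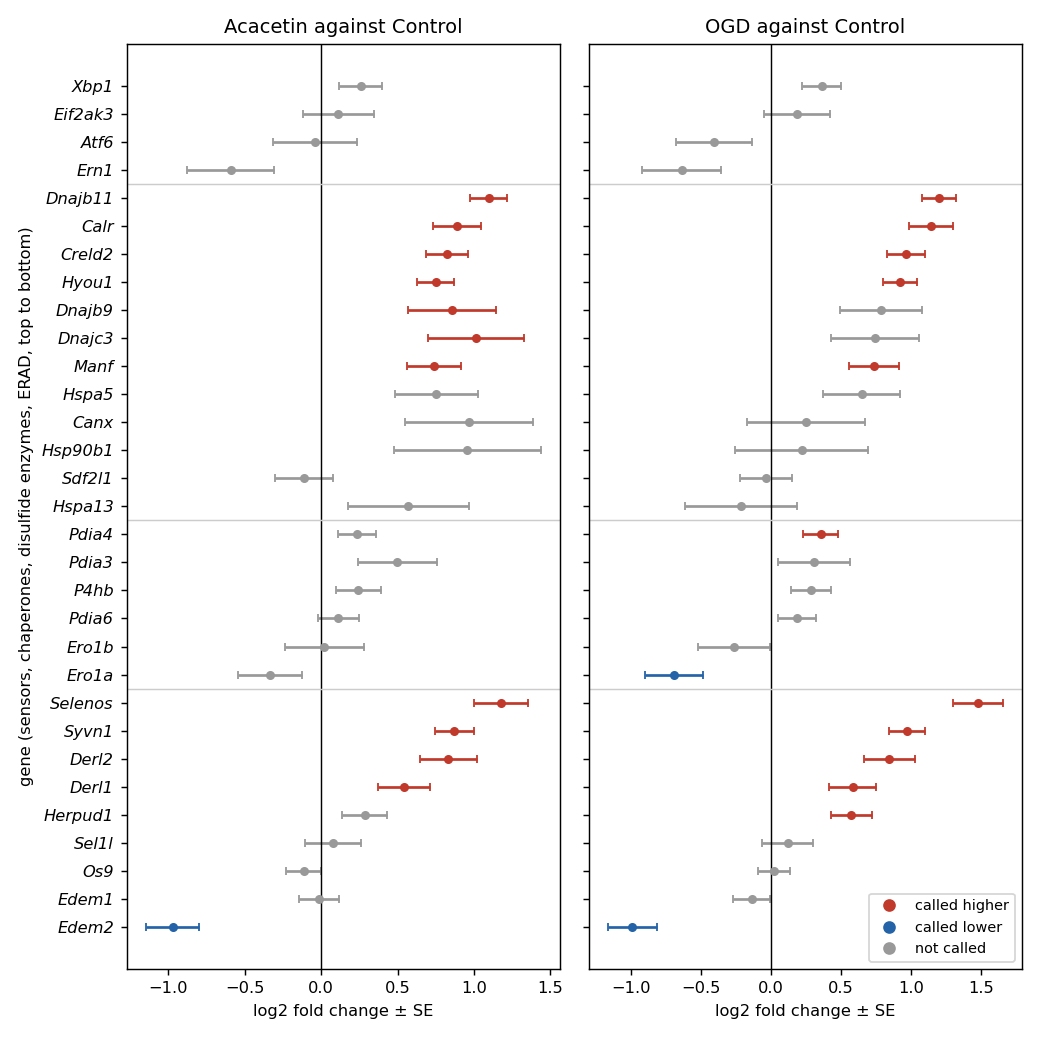
Log2 fold change with SE of each tested member, Acacetin against Control in the left panel and OGD against Control in the right panel, with members down the page by role and calls in colour. Both panels use the same 4 Control libraries. Selenos is the highest and Edem2 the lowest in both, and none of the sensors is coloured.

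Acacetin against OGD asks whether the compound shifted these transcripts after deprivation. Of the 31 tested members 0 were called, as were 0% of all 13249 tested genes. At an unadjusted p under 0.05 edgeR gave 0 members and 685 genes (5.17%). At an adjusted p under 0.05 DESeq2 called 0 members and 37 genes (0.279%), 3 of them higher in Acacetin and 34 lower. For 0 of the 31 members did the Acacetin and OGD libraries separate, against 2.35% of all genes (0.468% above and 1.88% below). The members' log2 fold changes ran from -0.30 (Selenos) to 0.79 (Hspa13) with a median of -0.04, and the smallest adjusted p was 0.8286. A missing call does not show that the groups were alike, and the 95% interval of each difference gives the sizes that remain possible.

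Of the members that rose in OGD, Selenos averaged 48.1 ± 9.88 CPM in Acacetin and 59.2 ± 13.1 CPM in OGD, a log2 difference of -0.30 (95% interval -0.67 to 0.07). The interval was -0.59 to 0.08 for Calr, -0.60 to 0.03 for Herpud1, -0.43 to 0.09 for Hyou1 and -0.36 to 0.15 for Dnajb11, around estimates of -0.26, -0.29, -0.17 and -0.11. Over all 11 members that rose, the estimates ran from -0.30 (Selenos) to 0.004 (Manf, interval -0.37 to 0.38), with -0.04 for Derl1 and -0.01 for Derl2. These members were picked on the same OGD libraries, so the share of negative estimates among them says nothing about the compound. Edem2 averaged 112 ± 28.9 CPM in Acacetin and 111 ± 17.3 CPM in OGD, a log2 difference of 0.02 (-0.35 to 0.39), and Ero1a 65.2 ± 19.5 CPM in Acacetin and 50.7 ± 5.42 CPM in OGD, a difference of 0.36 (-0.09 to 0.81). Intervals were wider for some genes that varied much among the Acacetin libraries, such as Hsp90b1 at 0.74 (-0.29 to 1.76) and Canx at 0.72 (-0.18 to 1.62).

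Acacetin against Control, which shares its Control libraries with OGD against Control and is no independent repeat of it, called 11 of 31 members higher and 1 lower. Over all tested genes 26.9% were called, 14.0% higher and 12.9% lower. The median log2 fold change was 0.50 over the members and 0.08 over all genes. Those called higher were 7 chaperone genes (Dnajb11, Hyou1, Creld2, Calr, Manf, Dnajc3 and Dnajb9) and 4 ERAD genes (Selenos, Syvn1, Derl2 and Derl1), and Edem2 was lower. Of the disulfide enzymes and of the sensors 0 were called. Selenos had log2 fold changes of 1.18 ± 0.18 in Acacetin against Control and 1.48 ± 0.18 in OGD against Control. The same pair of values was 1.10 ± 0.12 and 1.20 ± 0.12 for Dnajb11, 0.87 ± 0.13 and 0.97 ± 0.13 for Syvn1, and -0.97 ± 0.17 and -0.99 ± 0.17 for Edem2. Hspa5 had 0.76 ± 0.27 in Acacetin against Control (adjusted p = 0.0553), and Ddit3 was lower here as well (-2.61 ± 0.28, adjusted p = 0.000133).

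Several calls of Acacetin against Control turned on single libraries. Without Acacetin 1 the members called higher numbered 16, with Hspa5 (0.98, adjusted p = 0.00209), Hsp90b1 (1.27, adjusted p = 0.0163), Canx (1.27, adjusted p = 0.00501), Pdia3 (0.72, adjusted p = 0.00718) and Hspa13 (0.84, adjusted p = 0.0445) added. Calls rose over the whole table in that fit, to 43.1% of all tested genes from 26.9% with all libraries. The call of Dnajc3 ended without Control 1, Control 2, Control 3, Acacetin 3 or Acacetin 4 (log2 fold change 0.72 to 1.02, adjusted p = 0.0636 to 0.0856). Without Acacetin 3 and 4 together, an alternative that had not been planned, Dnajc3 had 0.40 (adjusted p = 0.360). Dnajb9 had 0.47 without Acacetin 3 and 4 (adjusted p = 0.314), while Ero1a was called lower (-0.70, adjusted p = 0.0266). Dnajb9 was also lost without any 1 of the Control libraries or without Acacetin 2, 3 or 4 (adjusted p = 0.0573 to 0.119), and Derl1 without Control 2, Control 3 or Acacetin 2 (adjusted p = 0.0567 to 0.0878).

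The spread within Acacetin was described along the GC share of the transcript, comparing Acacetin 3 with Acacetin 1. These libraries lay at the ends of the 12 in the slopes with GC and with gene length. Hsp90b1 was 8.26-fold higher in Acacetin 3 than in Acacetin 1, Canx 6.74-fold, Hspa13 4.35-fold, Dnajc3 3.26-fold and Hspa5 2.81-fold, and transcripts of these 5 genes had a GC share of 39.8% to 45.6%. Of the 15 members with a GC share under 48%, 12 were higher in Acacetin 3 than in Acacetin 1, whereas of the other 16 members 13 were lower. Because these 2 libraries had the extreme slopes, the direction of these counts follows from that choice, and the parts of GC and of length were not separated. The highest Acacetin library exceeded the lowest by a median of 2.73-fold over the 15 members of lower GC and 1.44-fold over the other 16. The same ratio was 1.53-fold and 1.26-fold in OGD, and 1.51-fold and 1.23-fold in Control.

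With the GC trend of each library removed, an alternative added after the slopes had been seen, 14 members were called higher and 2 lower in OGD against Control, where 35.1% of all genes were called. Xbp1, Hspa5 (0.60, adjusted p = 0.0207), Dnajb9 (0.74, adjusted p = 0.00416), Dnajc3 (0.68, adjusted p = 0.0148) and P4hb (0.30, adjusted p = 0.0273) were gained, and Pdia4 (adjusted p = 0.0512) and Derl2 were lost. Acacetin against Control then gave 14 members higher and 1 lower, with the call of Derl2 lost (adjusted p = 0.112). Calls also rose over the whole table in that comparison, with 17.3% of all genes higher, against 14.0% before the removal. Acacetin against OGD again gave 0 member calls. With the length trend removed instead, OGD against Control gave 10 members higher and 4 lower, where 33.9% of all genes were called. Among the 4 were Ern1 (-0.68, adjusted p = 0.0182) and Atf6 (-0.45, adjusted p = 0.0428). Acacetin against Control gave 11 higher, without Derl2 (adjusted p = 0.0640), and 2 lower, where 32.2% of all genes were called.

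**Figure D4:**
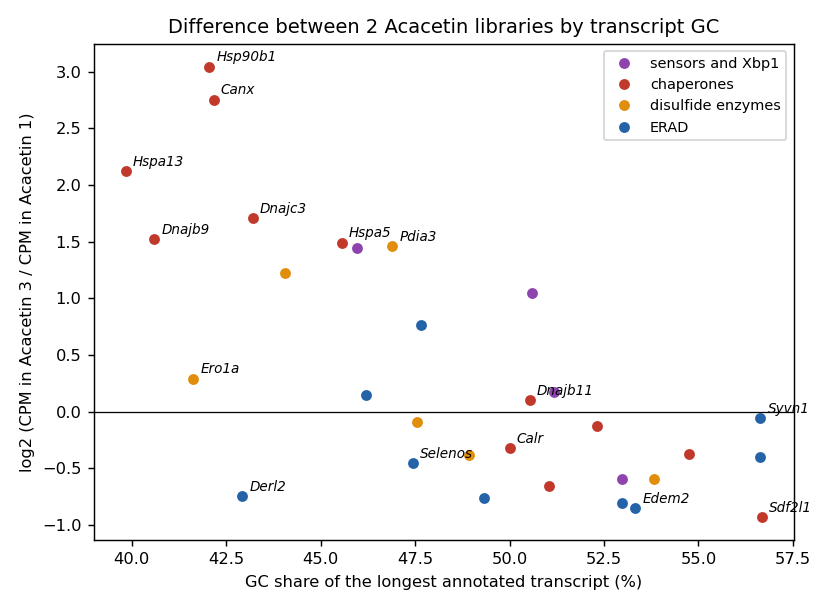
Log2 ratio of CPM in Acacetin 3 over Acacetin 1 (vertical axis) for each tested member by the GC share of its longest annotated transcript in percent (horizontal axis), coloured by role. Members of low GC such as Hsp90b1 and Canx lie highest, and those of high GC such as Sdf2l1 lie below 0.

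Partners of the members were counted from lists of 86 genes in 6 sub-lists, of which 77 were tested. In OGD against Control 20 were higher, 3 lower and 54 not called, beside 16.2% and 12.6% of all tested genes, with a median log2 fold change of 0.18. The split was 3 higher and 5 lower with limma on log2 FPKM with 1 added, and 4 higher and 5 lower with 0.1 added, where 32.2% and 33.7% of the calls over all genes were higher, against 56.3% on counts. N-glycan addition and trimming gave 6 rises and 0 falls among 12 genes with a median of 0.42, for example Stt3a, the catalytic subunit of oligosaccharyltransferase (0.78 ± 0.15), and Ganab, a subunit of glucosidase II (0.49 ± 0.11). The translocon and signal sequence machinery gave 4 rises and 0 falls among 12, led by Ssr1 (0.77 ± 0.13) and Sec61a1, the channel's main subunit (0.55 ± 0.14). Further ERAD factors gave 5 rises and 0 falls among 21, such as Ubxn8 (1.05 ± 0.19) and Nploc4, a co-factor of VCP (0.66 ± 0.13). Co-chaperones and folding factors went both ways, with Fkbp11 (1.03 ± 0.23) and Rcn1 (0.56 ± 0.18) higher and Sil1, an exchange factor of BiP (-0.53 ± 0.17), and Fkbp7 (-1.27 ± 0.37) lower among 13. Thioredoxin-like partners gave 2 rises and 0 falls among 11, in Txndc11 (0.47 ± 0.13) and Txndc5 (0.52 ± 0.16). Other regulators of the response gave 1 rise, in Creb3 (0.54 ± 0.18), and 1 fall, in Creb3l1 (-0.44 ± 0.13), among 8. Without OGD 2 and 3 the partners called numbered 10, and without Control 1, Control 2 or OGD 2 they numbered 14, 11 and 11. Calls over all tested genes fell in the same fits, to 14.5%, 22.4%, 20.8% and 21.7%, from 28.8% with all libraries.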

How the data were processed

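RNA was measured in 12 BV2 libraries, 4 per group. Per the labels' protocols, total RNA was taken up in TRIzol, treated with DNase and made into stranded mRNA libraries read as pairs on a NovaSeq. The tools named in the submitters' processing notes are bcl2fastq, HISAT2 and DESeq2, with the build GRCm39 and no versions or roles. The deposited counts are whole reads per gene, and the authors' deposited FPKM divide by gene length and depth (24728 genes). The counter, its annotation and whether it used strand are not given in the sources used here.

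Genes were filtered with filterByExpr (minimum count 10, total 15) and tested two-sided in edgeR 4.0.16 (R 4.3.3), with 1 quasi-likelihood fit over all 12 libraries, TMM scaling, a mean per group and contrasts of that fit, checked on simulated counts. FPKM were used for levels between genes and in limma 3.58.1. Together with counts and depth they also gave the gene lengths behind the length slopes and the removal of length trends. GC shares are those of the longest GENCODE M21 transcript, matched for 99.7% of tested genes. Replicate libraries differed beyond sampling noise. Reads carry no molecular identifiers, so depth limits counting error only. Alternatives were DESeq2 1.42.0, its size factors, other filters, 8 libraries, a replicate block, limma on log2(FPKM + 1) or log2(FPKM + 0.1), removal of length or GC trends, and libraries left out.

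Members and lists were chosen with earlier results of these data known. Values per library are given for the 4 sensors and factors and, in each other role, for the 4 members with the smallest and the 2 with the largest p in OGD against Control. Hspa5 was added for its central role. Of the partners, up to 2 called per direction and sub-list are named.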

Additional observations from a re-analysis of the deposited data

Results flagged for a closer look

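A single library stood apart from the other 3 of its group, by Dixon's test at the 95% level, in 6 of the 93 groups of 4 examined over the 31 tested members, and chance flags about 1 group in 20. Control 3 was highest for 4 chaperone genes, with 829 CPM for Calr (other Control libraries 625 to 636 CPM), 56.2 CPM for Creld2 (44.5 to 45.1 CPM), 50.9 CPM for Dnajb11 (42.0 to 43.3 CPM) and 107.9 CPM for Hyou1 (103.8 to 104.3 CPM). These 4 genes were called higher in OGD with and without Control 3. Control 4 was highest for Canx with 45.5 CPM (30.1 to 31.96 CPM) and for Edem1 with 173 CPM (131 to 133 CPM), neither of which was called with or without Control 4.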

How the results depend on the processing

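Over 31 members and 21 alternatives (651 values a comparison), OGD against Control kept 246 of its 273 calls, lost 27 and gained 26. Acacetin against OGD gave 0 member calls in all 21. Acacetin against Control kept 224 of 252 calls, lost 28 and gained 22. No value called in either fit changed sign, while estimates called in neither did so in 21, 109 and 39 values. The cause of the changes below was not tested. In OGD against Control the members called lower numbered 1 with limma on log2 FPKM with 1 or 0.1 added and without OGD 2 and 3, 4 with the length trend removed (10 higher), and 1 to 2 with 1 library left out. The genes called numbered 2010 without OGD 2 and 3. On FPKM with 1 added, 32.2% of calls were higher (911 higher and 1920 lower) against 56.3% on counts, and the median over all genes with 0.1 added was -0.11 there and 0.24 in Acacetin against OGD. Partners called in OGD against Control numbered 8 and 9 with limma on log2 FPKM with 1 and 0.1 added, 10 without OGD 2 and 3, and 11 to 23 with 1 library left out. In the same order 21.4%, 21.9%, 14.5% and 20.8% to 26.0% of all genes were called, against 28.8% in the main fit. In Acacetin against OGD the genes called numbered 37 with DESeq2, 8 without the filter, 1 with the 8 libraries compared, 2 with the replicate block, 4 without Acacetin 1 and 3, 4 with the length trend removed, and 0 to 9 with 1 library left out. In Acacetin against Control the members called lower numbered 2 with the length trend removed and 2 without Acacetin 3 and 4, and the genes called ran from 2373 to 5818 with 1 library left out. The replicate block gave 15 members higher and 2 lower in OGD against Control and 12 higher and 1 lower in Acacetin against Control. It called 34.5% and 32.3% of all genes in these 2 comparisons. In OGD against Control it added Hspa5 (0.71, adjusted p = 0.0177), Dnajb9 (0.79, adjusted p = 0.0333), Dnajc3 (0.72, adjusted p = 0.0347) and Xbp1 (0.36, adjusted p = 0.0461). The labels do not say what a replicate number marks, and libraries of equal number were not taken as pairs because only 8 of 12 correlations between them were over 0.1 (range -0.29 to 0.51). Number 4 correlated best with itself in all 3 comparisons, number 1 in 2, number 2 in 1 and number 3 in 0. Depth limited chiefly Derl3, with 3 reads in all.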

Other observations

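Neighbouring stress programmes were counted from lists of their own in OGD against Control, beside 16.2% of all tested genes higher and 12.6% lower. The cytosolic heat shock list, chaperones of the cytosol, gave 7 rises and 0 falls among 20 tested genes with a median log2 fold change of 0.35. The proteasome list, which completes the work of ERAD, gave 8 rises and 0 falls among 31 with a median of 0.23. The integrated stress response list, the transcriptional programme of ATF4, gave 5 rises and 2 falls among 19 with a median of 0.19. In Acacetin against OGD each of these lists had 0 calls. In Acacetin against Control, which shares its Control libraries, they gave 6 rises and 0 falls, 5 rises and 0 falls, and 5 rises and 3 falls, in the same order. Over all tested genes 14.0% were higher and 12.9% lower there. The proteasome list, with 16.1% higher, was near the share of all genes.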
